A study of Mus musculus with 6 samples.

Results

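The complexin, Munc13 and RIM genes of neurotransmitter release were followed in the cortex of newborn wild type and Fezf2 KO mice. The 10 genes Cplx1, Cplx2, Cplx3, Unc13a, Unc13b, Unc13c, Rims1, Rims2, Rims3 and Rimbp2 were found by symbol among the 23016 entries of the deposited table, each as 1 entry. The family was selected on its values in the genotype comparison, where Cplx3 and Unc13c were already known to differ, so counts over the 10 genes describe the family and are no evidence about it. The adjusted p-values of its members are those of a fit over all genes, given as a description of genes picked with that fit in view. Cerebral cortex at postnatal day 0 came from 3 Fezf2+/+ (wild type) and 3 Fezf2-/- (Fezf2 KO) pups of crosses between heterozygous mice. Replicates 1 and 2 of each genotype were from litter m1 and replicate 3 from litter m2. The sources used here do not give the strain or describe the mutant allele, which every cell of a KO pup carries, not just chosen cell types.

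Neurotransmitter release begins when a vesicle docks at the active zone of the presynaptic membrane and is made ready to fuse. RIM proteins bind Rab3 on the vesicle, calcium channels and Munc13, and RIM-binding proteins tie RIM to the calcium channels. Munc13 opens syntaxin so that the SNARE complex can form, and complexins then clamp or assist the assembled complex until calcium reaches synaptotagmin. In mouse cortex around birth, Cplx3 is known as a marker of subplate neurons, the early-born neurons below layer 6, and Fezf2 as a transcription factor of deep-layer projection neurons.

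The promoter sequences of the 3 genes that changed are shown because these genes moved while others of their families did not pass the test. Promoter activity itself was not measured. RefSeq (GRCm38.p6) listed a start for 9 of the 10 genes, and Rims2 had no entry. Each line gives the 250 bases before the listed start on the minus strand, 5′ to 3′, at chr9:57606282-57606531 for Cplx3, chr9:73969038-73969287 for Unc13c and chr5:128953487-128953736 for Rimbp2. None of these 3 windows overlapped an exon of the GENCODE M21 annotation. The listed starts of Unc13c and Rimbp2 lie inside their RefSeq loci, which reach further upstream. Capitals mark matches to any of 5 motifs on either strand. The TATA box was searched as TATAAA. The binding site of NF-Y was searched as CCAAT. The GC box of Sp1 was searched as GGGCGG. The cAMP response element was searched as TGACGTCA, and the AP-1 site as TGANTCA, where N is any base. No motif of the 5 contains another.
Cplx3: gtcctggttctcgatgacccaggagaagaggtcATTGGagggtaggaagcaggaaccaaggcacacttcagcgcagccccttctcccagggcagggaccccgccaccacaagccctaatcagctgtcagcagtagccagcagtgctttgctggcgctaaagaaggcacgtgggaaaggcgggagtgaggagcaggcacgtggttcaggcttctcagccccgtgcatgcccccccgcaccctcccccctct
Unc13c: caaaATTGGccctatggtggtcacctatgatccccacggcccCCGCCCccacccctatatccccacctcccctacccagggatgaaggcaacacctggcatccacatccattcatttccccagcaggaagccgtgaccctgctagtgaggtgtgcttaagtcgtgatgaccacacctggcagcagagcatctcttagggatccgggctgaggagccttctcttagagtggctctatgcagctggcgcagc
Rimbp2: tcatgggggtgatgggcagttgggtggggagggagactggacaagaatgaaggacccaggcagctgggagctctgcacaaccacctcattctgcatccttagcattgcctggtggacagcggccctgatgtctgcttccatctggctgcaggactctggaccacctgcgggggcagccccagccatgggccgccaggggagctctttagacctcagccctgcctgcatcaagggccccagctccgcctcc

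The Cplx3 window held 1 CCAAT match, the Unc13c window 1 CCAAT and 1 GC box match, and the Rimbp2 window no match. Over all 32851 promoter windows of this length, 33.8% held CCAAT and 32.7% the GC box. The TATA box (12.4% of all windows), the AP-1 site (6.75%) and the cAMP response element (1.55%) were in none of the 9 windows of the family. CpG dinucleotides numbered 9 upstream of Cplx3, 6 upstream of Unc13c and 4 upstream of Rimbp2, against a median of 6 over all windows and 19 upstream of Rims1.

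Values are read counts normalised by 1 size factor per library, and each library held 44978380 to 52872577 gene reads. The targeted gene, Fezf2, had 5030.3, 5928 and 5396 in wild type 1, 2 and 3 against 1989, 1377 and 1533 in Fezf2 KO 1, 2 and 3 (log2 -1.75, limma adjusted p = 0.000832). Fezf2 KO 1 stood apart in its choroid plexus markers. Its 5 choroid plexus genes summed to 9518, against 47.3 to 116 in each of the other libraries. The 12 striatal genes summed to 3128 in Fezf2 KO 1 and 4384 in Fezf2 KO 3, both below the 7329 to 10457 of wild type. Fezf2 KO 2, at 8035, lay inside that range. Of 11 striatal genes tested, 0 changed and 9 had a limma unadjusted p under 0.05, with a median log2 difference of -1.34. All 7 cortical projection neuron genes, Emx1, Neurod6 and Tbr1 among them, were present, with sums of 112576 to 121040 in wild type and 115003 to 132471 in Fezf2 KO. Each library came from 1 brain, and p-values measure the spread between 3 brains per genotype.

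Of the 10 genes, 3 changed between genotypes and 7 did not pass the test. Cplx3 was lower, and Unc13c and Rimbp2 were higher, in Fezf2 KO cortex. A gene counted as changed at an adjusted p under 0.05 in limma, fitted on log2(normalised count + 1) over 17557 genes. The background was 0.712% of all genes tested, 0.404% higher and 0.308% lower. edgeR, with a background of 0.689%, and DESeq2, with 2.30%, called the same 3 genes. The 3 genes had no overlap between genotypes, as had 14.5% of all genes tested, and the same 3 had an unadjusted p under 0.05, as in 9.03%. The median log2 difference was -0.036 over the 10 genes and 0.0025 over all genes tested. All 10 genes passed the filter on low values, and the fewest reads of any of them in a library were 58, for Cplx3.

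**Figure D1:**
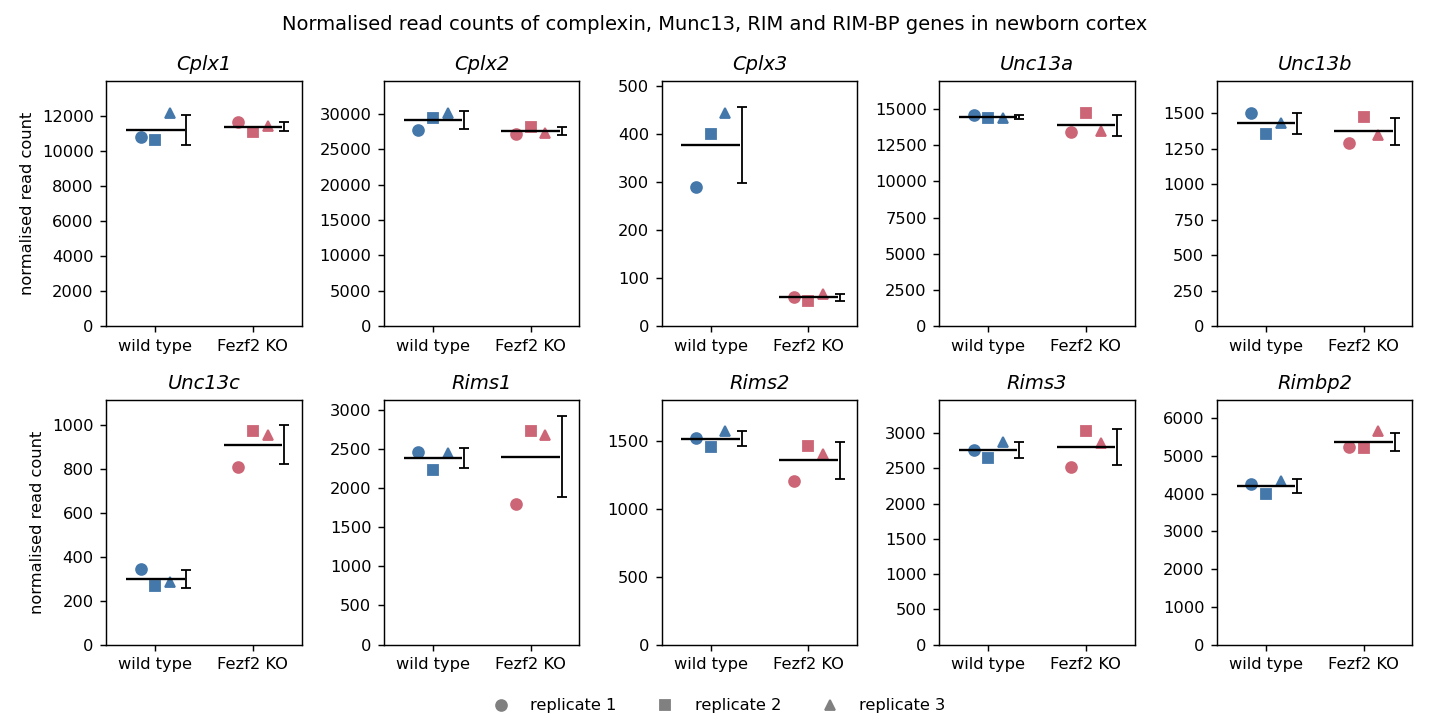
Normalised read count (y axis, from 0) of each of the 10 genes in 3 wild type (blue) and 3 Fezf2 KO (red) libraries; symbols give the replicate, horizontal lines the mean and bars the SD. Cplx3 lies between 289 and 444 in wild type and between 52.1 and 67.1 in Fezf2 KO, Unc13c and Rimbp2 are separated the other way, and the other 7 genes overlap between genotypes.

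Of the 3 complexins, Cplx3 was lower in Fezf2 KO cortex, and Cplx1 and Cplx2 did not pass the test. Cplx3, which encodes a complexin anchored to membranes through a lipid at its C terminus, had 289, 399.6 and 444 in wild type 1, 2 and 3. It had 60.1, 52.1 and 67.1 in Fezf2 KO 1, 2 and 3. Every Fezf2 KO library was far below every wild type library, and the lowest wild type value was that of replicate 1. The mean fell from 378 ± 79.9 to 59.8 ± 7.52 (SD, n = 3 each), a 6.32-fold lower level (log2 -2.62, SE 0.18, 95% interval -3.05 to -2.20, limma adjusted p = 0.000723). Reads of Cplx3 remained in each Fezf2 KO library. Because whole tissue was measured, fewer cells that express a gene and less of its RNA per cell cannot be told apart.

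Cplx1 and Cplx2 encode the main complexins of forebrain synapses. Cplx1 had 10777, 10625 and 12151 in wild type 1, 2 and 3 against 11651, 11093.5 and 11390.1 in Fezf2 KO 1, 2 and 3. These groups overlapped (log2 0.027, SE 0.058, 95% interval 0.929- to 1.12-fold, limma adjusted p = 0.953). Cplx2 had 27739, 29453 and 30112 in wild type against 27168, 28167 and 27346 in Fezf2 KO. Fezf2 KO 2 lay above wild type 1, so these groups overlapped too (log2 -0.078, SE 0.042, 95% interval 0.887- to 1.01-fold, limma adjusted p = 0.677). The intervals of Cplx1 and Cplx2 hold no change near the size seen for Cplx3.

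Of 11 other subplate genes tested, 4 fell, 0 rose and 7 did not pass, with a median log2 difference of -0.22. Over all genes tested, 0.308% fell and 0.404% rose. The list was chosen with earlier results of these data known, so these counts describe it and are no evidence about it. The list summed to 16629 to 18936 in wild type and 12716 to 13024 in Fezf2 KO, and without Nxph3 these sums overlapped, at 10517 to 12936 and 11763 to 12272. In Fezf2 KO most of that remaining sum was Nr4a2, which was higher in every Fezf2 KO library. Of the 11 genes, 6 had a lower mean in Fezf2 KO. The falls were those of Nxph3 and Nxph4, which encode secreted neurexophilins, Tmem163, a zinc transporter, and Ctgf, a secreted matrix protein. Nxph4 had 2025, 2038 and 1997 in wild type 1, 2 and 3 against 1147, 916 and 1051 in Fezf2 KO 1, 2 and 3 (log2 -0.97, limma adjusted p = 0.00237). Nr4a2, a nuclear receptor of subplate neurons, had 5595, 5562 and 3348 in wild type against 7521, 7117 and 7392 in Fezf2 KO, and did not pass (limma adjusted p = 0.237). Lpar1 (log2 -0.50, limma adjusted p = 0.513) and Drd1a (log2 -0.22, limma adjusted p = 0.499) were lower in every Fezf2 KO library, and did not pass either. What part the number of subplate neurons has in the fall of Cplx3 was not tested. In the table the gene next to Cplx3 on the same strand, Lman1l, which RefSeq merges with Cplx3 into 1 locus, had only 6.18 to 15.7 in each library.

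The profile of Cplx3 over the 6 libraries was compared with those of 12286 other named genes, each centred on its own mean. The nearest was that of Nxph3, with a root mean square difference of 0.348 on the log2 scale, and its values were 6000, 6486 and 6112 in wild type against 657, 953 and 752 in Fezf2 KO. Next came Ngfr (0.374), the low-affinity neurotrophin receptor, and Zfpm2 (0.458), a GATA cofactor. All 3 are also lower in every Fezf2 KO library, and the measure favours genes with a genotype difference of like size.

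**Figure D2:**
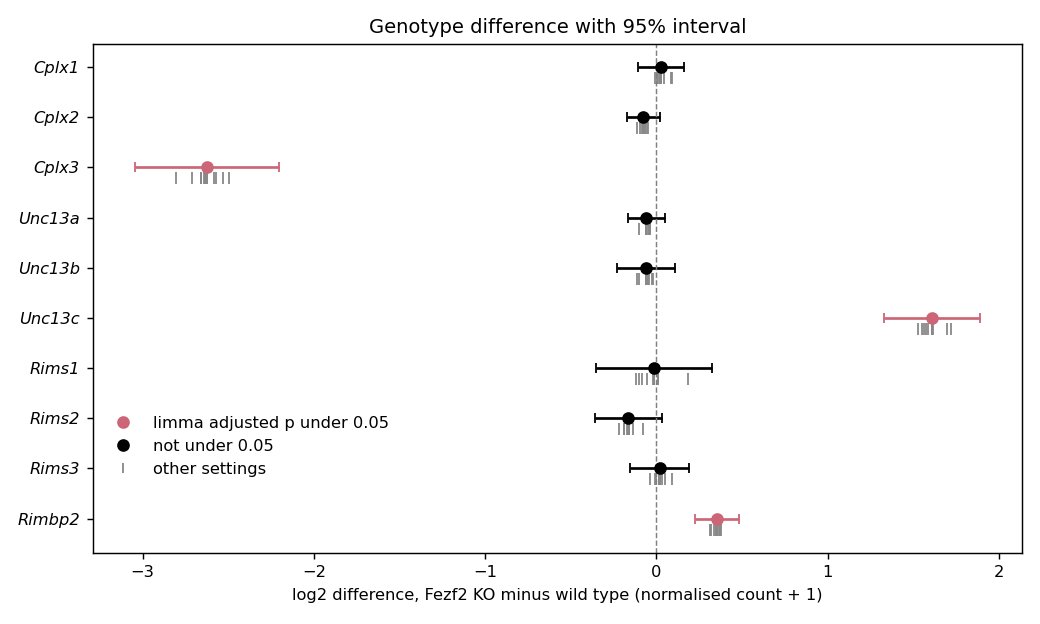
Log2 difference (x axis, Fezf2 KO minus wild type, on the normalised count plus 1) of each of the 10 genes with its 95% interval; red points are genes with a limma adjusted p under 0.05 and grey ticks are the differences under the other settings tried. Cplx3 is at -2.62, Unc13c at 1.61 and Rimbp2 at 0.35, and the intervals of the other 7 genes include 0.

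Of the 3 Munc13 genes, Unc13c was higher in Fezf2 KO cortex, and Unc13a and Unc13b did not pass the test. Unc13c encodes Munc13-3, a priming protein best known from cerebellar granule cells. It had 344, 265 and 286 in wild type 1, 2 and 3 against 809.5, 972 and 954 in Fezf2 KO 1, 2 and 3. The lowest Fezf2 KO library was more than any wild type library, and the groups were well separated. The mean rose from 299 ± 41.0 to 912 ± 88.9 (SD, n = 3 each), 3.05-fold (log2 1.61, SE 0.12, 95% interval 2.52- to 3.71-fold, limma adjusted p = 0.000968). Within litter m1 alone, with 2 libraries per genotype, the difference was 1.55 on the log2 scale and did not pass (limma adjusted p = 0.0612). Summed marker levels of other cells also differed between the genotypes in these libraries. Striatal sums were below wild type in Fezf2 KO 1 and 3, with Fezf2 KO 2 inside the wild type range. The cerebellar, hippocampal, interneuron and choroid plexus lists each had no sum in wild type that reached the lowest in Fezf2 KO. For choroid plexus this was close to a tie, at 111.34 in wild type 1 and 111.36 in Fezf2 KO 2. The high choroid plexus sum, 9518, was that of Fezf2 KO 1 alone. The 6 cerebellar genes summed to 4665 to 5147 in wild type and 5562 to 5802 in Fezf2 KO, and most of that sum was Cbln1, a synapse organiser of cerebellar granule cells, which rose (log2 0.33, limma adjusted p = 0.0333). Without Cbln1 the cerebellar genes summed to 609 to 1092 in wild type and 529 to 601 in Fezf2 KO, the other way. Most of that remaining sum was Zic1. Zic1, a factor of granule cell progenitors, had 954, 470.3 and 572 in wild type against 353, 443 and 427 in Fezf2 KO (log2 -0.65, limma adjusted p = 0.423). It was the 1 gene of the 4 cerebellar genes tested with a lower mean in Fezf2 KO. Barhl1, at low values, had 0.94, 6.98 and 6.02 in wild type against 18.67, 14.37 and 14.13 in Fezf2 KO (log2 1.80, limma adjusted p = 0.282). Atoh1, another factor of granule cell progenitors, was at most 2.69. In the interneuron list Npy, a neuropeptide, rose (log2 0.69, limma adjusted p = 0.0402), and without it the sums overlapped, at 37453 to 42468 and 41442 to 46237. Lhx6 (log2 0.24, limma adjusted p = 0.136) and Dlx2 (log2 0.18, limma adjusted p = 0.244) were also higher in every Fezf2 KO library, and did not pass. Of the 10 interneuron entries, 2 had a lower mean in Fezf2 KO. These entries cover 9 genes, with Dlx1 entered more than once. None of the 6 hippocampal genes passed limma's test, 3 had an unadjusted p under 0.05, and their sums were 14333 to 16617 and 17072 to 19169. Most of that sum was Lhx2, with 12336, 13620 and 11928 in wild type against 15921, 12926 and 15374 in Fezf2 KO, groups that overlapped. Of the 6 hippocampal genes, 2 had no overlap between genotypes, as had 14.5% of all genes tested. They were Fibcd1 and Prox1, both higher in Fezf2 KO. Fibcd1 had 827, 1116 and 725 in wild type against 1230, 2062 and 2220 in Fezf2 KO (log2 1.02, limma adjusted p = 0.133). A lower mean in Fezf2 KO was found for 2 of the 6, among them Wfs1 (log2 -0.46, limma adjusted p = 0.673). These sums without 1 gene were computed after the values were seen. The part of these cells in the Unc13c and Rimbp2 values was not tested.

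Unc13a encodes Munc13-1, the priming protein that most cortical glutamatergic synapses need. It had 14617.5, 14405.5 and 14363 in wild type against 13445, 14731 and 13510.4 in Fezf2 KO. Fezf2 KO 2 was the highest of all 6 libraries, so the groups overlapped (log2 -0.059, SE 0.046, 95% interval 0.892- to 1.03-fold, limma adjusted p = 0.822). Exons of Unc13a overlap those of Colgalt1 on the opposite strand in GENCODE M21, and whether counting used strand is unknown, so its reads are uncertain in origin. Colgalt1 stands in the table under its older symbol Glt25d1, with 3765 ± 173 in wild type and 2984 ± 327 in Fezf2 KO (limma adjusted p = 0.151). Unc13b, which encodes Munc13-2, had 1501, 1352 and 1432 in wild type against 1292, 1475 and 1346 in Fezf2 KO (log2 -0.06, SE 0.074, 95% interval 0.852- to 1.08-fold, limma adjusted p = 0.910). Its groups overlapped as well.

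Levels of different genes were compared per kilobase of exon, with lengths from GENCODE M21 because the authors' gene models are not given. Unc13c made up 2.54, 2.01 and 2.16% of the summed Munc13 level per kilobase in wild type 1, 2 and 3, against 6.26, 6.81 and 7.25% in Fezf2 KO 1, 2 and 3. Unc13a held 92.4% ± 0.479 of that sum in wild type and 88.1% ± 0.561 in Fezf2 KO (SD, n = 3 each). Cplx3 went from 1.14% ± 0.194 to 0.187% ± 0.0238 of the summed complexin level. Both shares rest on the same counts as the genotype differences and add no evidence of their own.

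The nearest profile to that of Unc13c was that of Fosl2, an AP-1 transcription factor, with a root mean square difference of 0.150 on the log2 scale. Fosl2 had 4183, 3704 and 3559 in wild type against 10024, 9676 and 10571 in Fezf2 KO. Slc24a2 (0.193), a potassium-dependent sodium-calcium exchanger, and Fzd10 (0.205), a Wnt receptor, came next, and all 3 were higher in every Fezf2 KO library.

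RIM genes did not pass the test. Rims1, which encodes RIM1 of the active zone, had 2466.5, 2239.9 and 2449 in wild type 1, 2 and 3 against 1803, 2727 and 2679 in Fezf2 KO 1, 2 and 3. Fezf2 KO 1 was the lowest of the 6 libraries and the other 2 Fezf2 KO libraries were the highest, so the means nearly matched (2385 ± 126 and 2403 ± 521, log2 -0.013, SE 0.15, limma adjusted p = 0.996). Without Fezf2 KO 1 the difference turned to 0.18 on the log2 scale, and it did not pass there either (limma adjusted p = 0.454). Fezf2 KO 1 is also the library with the lowest striatal and the highest choroid plexus sum, and the part of these tissues in its Rims1 value was not tested.

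Rims2, which encodes RIM2, had 1518, 1457 and 1569 in wild type against 1202, 1464 and 1403 in Fezf2 KO. Fezf2 KO 2 exceeded wild type 2 by a small margin, so the groups overlapped (log2 -0.16, SE 0.084, 95% interval 0.780- to 1.02-fold, limma adjusted p = 0.650). Without Fezf2 KO 1 this difference was -0.079 (limma adjusted p = 0.881). Rims3 encodes a short RIM that keeps just the last C2 domain. It had 2754, 2648 and 2875 in wild type against 2517, 3022 and 2862 in Fezf2 KO (log2 0.018, SE 0.076, 95% interval 0.897- to 1.14-fold, limma adjusted p = 0.984). An assembled transcript named as antisense to Rims3 had 7362 to 8906 in wild type and 7047 to 8623 in Fezf2 KO as its own entry. Whether its exons overlap those of Rims3 was not examined, and Rims3 is uncertain to that extent.

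Rimbp2 encodes RIM-binding protein 2, which links RIM to calcium channels. It had 4263, 3995 and 4335 in wild type 1, 2 and 3 against 5228, 5209.5 and 5645 in Fezf2 KO 1, 2 and 3. All Fezf2 KO libraries lay above all wild type libraries. The mean rose from 4197 ± 179 to 5361 ± 246 (SD, n = 3 each), 1.28-fold (log2 0.35, SE 0.056, 95% interval 1.17- to 1.40-fold, limma adjusted p = 0.0350). An exon of Rimbp2 overlaps the predicted gene Gm42875 on the opposite strand in GENCODE M21, so part of its reads is uncertain in origin as well. The call of Rimbp2 needed all 6 libraries. Dropping wild type 1, 2 or 3 gave limma adjusted p-values of 0.105, 0.142 or 0.0765, and dropping Fezf2 KO 1, 2 or 3 gave 0.0600, 0.0699 or 0.141, while the log2 difference stayed between 0.32 and 0.38.

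Neighbours of each gene were then examined, a comparison added after the values were seen. For 40 nearest protein-coding positions around the 10 genes (2 on each side in GENCODE M21), 30 genes were tested and 1 changed. Of all genes tested, 0.712% changed. The 1 neighbour was Fzd10, the second gene to the left of Rimbp2 and on the opposite strand. Fzd10 had 132, 75.9 and 116 in wild type against 244, 274 and 294 in Fezf2 KO (log2 1.35, SE 0.20, limma adjusted p = 0.0286). The noncoding gene 5930412G12Rik, which lies beside Fzd10, had 16.8, 26.2 and 15.5 in wild type against 68.2, 68.2 and 62.7 in Fezf2 KO (log2 1.75, SE 0.23, limma adjusted p = 0.0148). This gene was not among the 40 positions and was added because it lies beside Fzd10. The entry linc-Fzd10-BP had identical values in every library, so the 2 entries are not separate observations. Piwil1, between Fzd10 and Rimbp2, had 3.74, 34.03 and 7.73 in wild type against 12.99, 15.3 and 21.2 in Fezf2 KO, and its groups overlapped (limma adjusted p = 0.899). On the other side of Rimbp2, Stx2, a syntaxin, had 710.2 ± 63.7 against 639 ± 44.6 (limma adjusted p = 0.746). The genes flanking Cplx3 and Unc13c that were tested did not pass, with Ulk3 at log2 -0.099, Scamp2 at -0.066, Csk at -0.048 and Rsl24d1 at -0.015.

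**Figure D3:**
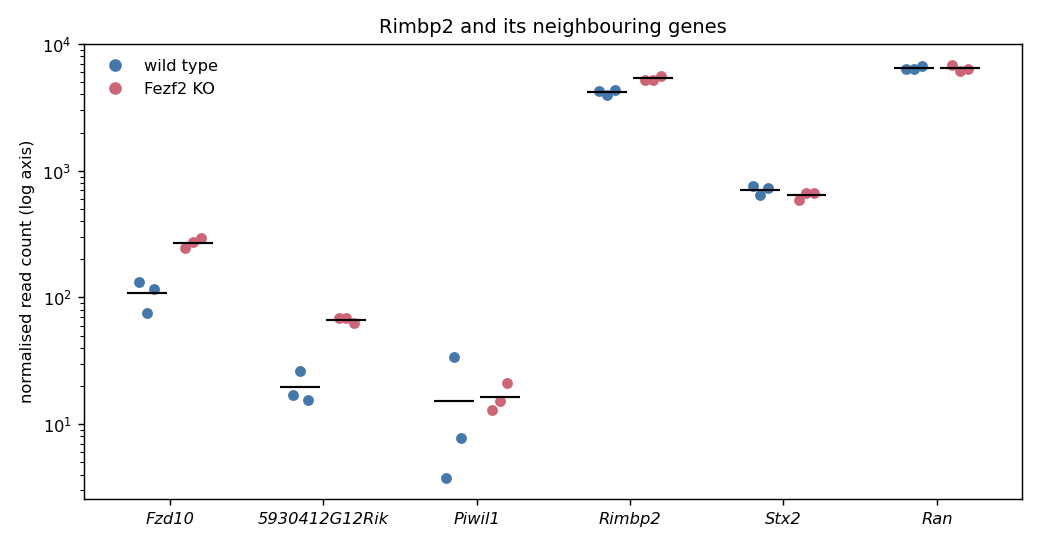
Normalised read count (y axis, log scale) of Rimbp2 and genes near it in 3 wild type (blue) and 3 Fezf2 KO (red) libraries, with the mean as a line. Fzd10, 5930412G12Rik and Rimbp2 are higher in every Fezf2 KO library than in every wild type library, while Piwil1 overlaps between genotypes and Stx2 has a limma adjusted p of 0.746.

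The 10 genes covered a wide range of levels per kilobase of exon. In wild type the order was Cplx2 (5905 ± 249, SD, n = 3), Cplx1 (5109 ± 384), Unc13a (1402 ± 13.2), Rimbp2 (544 ± 23.2), Rims3 (409 ± 16.8), Rims1 (348 ± 18.4), Rims2 (193 ± 7.15), Cplx3 (128 ± 27.0), Unc13b (81.3 ± 4.25) and Unc13c (33.9 ± 4.66). The library ranges of neighbours in this order did not overlap in wild type. In Fezf2 KO the first 7 places were the same, with Rims3 (373 to 448) and Rims1 (263 to 397) overlapping. Unc13c came eighth there with 104 ± 10.1, Unc13b ninth with 78.0 ± 5.34 and Cplx3 last with 20.2 ± 2.54.

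**Figure D4:**
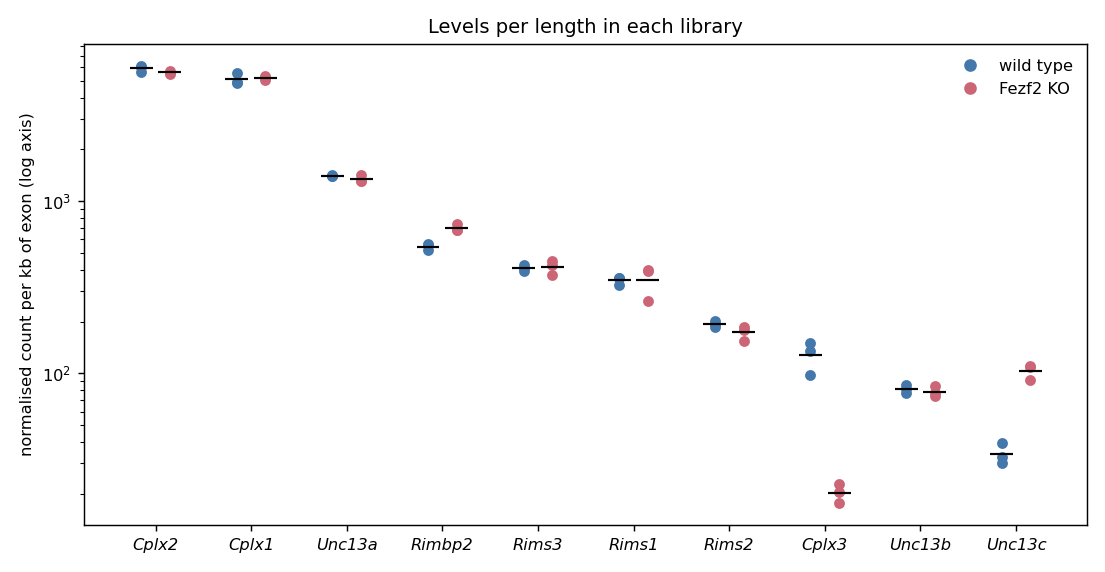
Normalised count per kilobase of exon (y axis, log scale) of the 10 genes in each library, in the wild type order from high to low, with the mean as a line. Cplx3 (128 and 20.2) and Unc13c (33.9 and 104) trade places between wild type (blue) and Fezf2 KO (red), and the first 7 genes keep their order.

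Other genes of the release machinery were examined in 6 lists with 79 genes. Of these, 78 were tested, 1 rose, 0 fell and 77 did not pass. The called share was 1.28%, against 0.712% of all genes tested. An unadjusted p under 0.05 was found for 12, or 15.4%, against 9.03% of all genes tested. Their median log2 difference was 0.0083, their range -0.48 to 0.57, and 66 of them lay within 0.2 of 0. The gene that rose, Slc17a6, encodes VGLUT2, which loads glutamate into vesicles, and had 608, 698 and 687 in wild type against 929, 989 and 966 in Fezf2 KO (log2 0.53, SE 0.080, limma adjusted p = 0.0276). It did not pass when any 1 of the 6 libraries was left out. Slc17a6 is also a thalamic marker, and the 6 other thalamic genes summed to 2487 to 2781 in wild type and 2478 to 2627 in Fezf2 KO, ranges that overlapped. Among the 16 vesicle protein genes the other 15 did not pass, and DESeq2 also called Sv2b, named here after its values were seen, with 2992 ± 184 against 3594 to 3856 in Fezf2 KO (limma adjusted p = 0.0977).

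Close relatives of the 10 genes gave 0 calls by limma among 5 tested, with 0 at an unadjusted p under 0.05 and 0 by edgeR and DESeq2. Bzrap1, which encodes RIM-binding protein 1, had 4518, 4165 and 4962 in wild type against 2988, 3787 and 4617 in Fezf2 KO, groups that overlapped (limma adjusted p = 0.647). Baiap3, a Munc13 relative of dense core vesicle traffic, had 284, 252 and 127 against 196, 654 and 236, with Fezf2 KO 2 high above the others (limma adjusted p = 0.830).

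SNARE and priming genes gave 0 calls by limma, edgeR and DESeq2 among 22 tested, with 2 at an unadjusted p under 0.05. These were Cadps2, a CAPS priming factor of dense core vesicles, at 577 ± 41.6 in wild type and 659 to 767 in Fezf2 KO (limma adjusted p = 0.259), and Doc2b, a calcium sensor of spontaneous release, at 2948 ± 91.8 and 1543 to 2764 (limma adjusted p = 0.448). Doc2b was lowest in Fezf2 KO 1. Active zone scaffold genes gave 0 calls among 13 by the same 3 tools, with 2 at an unadjusted p under 0.05, among them Erc2, an ELKS scaffold (log2 0.12).

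Rab3 pathway genes gave 0 calls among 12 by limma, edgeR and DESeq2, and 2 had an unadjusted p under 0.05. Rab3c, a vesicle GTPase that RIM binds, had 3791, 3383 and 3417 in wild type against 2891, 3246 and 2791 in Fezf2 KO, lower in each (log2 -0.25, SE 0.074, limma adjusted p = 0.287), and Rab27b had a log2 difference of -0.34. Presynaptic calcium channel genes gave 0 calls among 10 by these tools, with 3 at an unadjusted p under 0.05, among them the auxiliary subunits Cacna2d1 (log2 0.14) and Cacna2d3 (-0.39). None of these values passed the test over all genes.

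**Figure D5:**
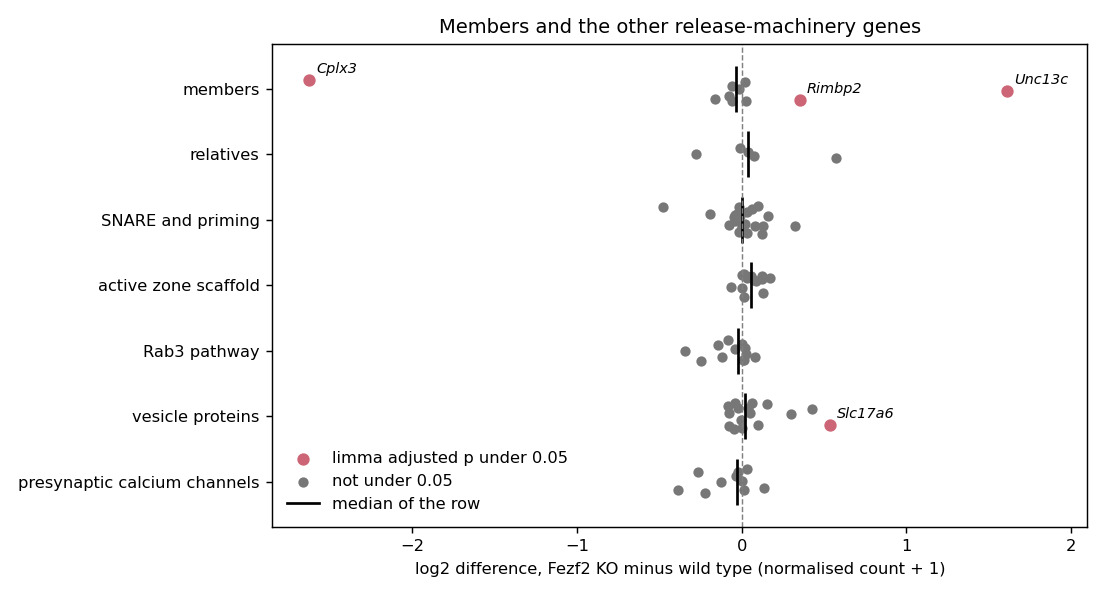
Log2 difference (x axis, Fezf2 KO minus wild type, on the normalised count plus 1) of the 10 genes (top row, "members") and of 6 lists of other release genes; red points have a limma adjusted p under 0.05, grey points do not, and black lines are row medians. In the 6 lists Slc17a6 at 0.53 is the red point, and all differences lie between -0.48 and 0.57.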

How the data were processed

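Total RNA of 6 cortices was sequenced as 1 Illumina TruSeq library per brain, per the labels' protocols. Per the submitters' processing notes, DESeq, STAR and Bowtie were used with mm9 as the mouse build, with no versions or settings given. The deposited signal is each gene's reads over a size factor, 1 for each library, and is not scaled to gene length. Whole reads were recovered from the steps of the deposited values (100% whole within 0.02 in each library), and served edgeR and DESeq2 as alternatives.

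The 17557 genes that reached 10 in 3 or more libraries were fitted with limma on log2(value + 1), with genotype as the term, a variance trend and Benjamini-Hochberg adjustment over all of them. The tools were limma 3.58.1, DESeq2 1.42.0 and edgeR 4.0.16 under R 4.3.3, with tables and plots made by pandas 2.3.3, matplotlib 3.10.9 and numpy 2.4.6 in Python 3.11.15. The fits were tested on simulated data. The members and the gene lists were chosen with earlier results of these data known. Named genes were the 10 members, up to 4 changed genes of each list (or the 2 with the smallest p), and the 3 nearest profiles to Cplx3 and Unc13c among genes with a mean of at least 50. For 1 gene that this rule names, values are not reported here.

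Litter, given in the labels, pairs the genotypes. Deviations from the genotype mean, over 14328 genes, correlated at -0.131 to 0.282 between libraries of 1 litter (5 pairs) and at -0.222 to -0.0469 between litters (4 pairs). GENCODE M21 and RefSeq (both GRCm38) gave names, lengths, neighbours and promoters, and no coordinate was converted to mm9. Marker lists used for tissue checks gave these counts in limma: striatal 0 of 11 changed (9 at an unadjusted p under 0.05, median log2 -1.34), choroid plexus 0 of 4 (1), cortical projection neuron 0 of 7 (2), hippocampal 0 of 6 (3), Cajal-Retzius 0 of 6 (0), thalamic 1 of 7 (Slc17a6), interneuron 1 of 10 (Npy) and cerebellar 1 of 4 (Cbln1).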

Additional observations from a re-analysis of the deposited data

How the results depend on the processing

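Cplx3 was lower and Unc13c and Rimbp2 higher under a pseudocount of 0.5, no filter, edgeR with TMM or RLE factors, DESeq2, limma-voom and litter as a replicate block, and each of these called the same 3 of the 10 genes. The replicate block called 138 genes in all, against 125 without it, and changed no call among the 10. Litter m1 alone, with 2 libraries per genotype, called 1 of the 10 (Cplx3, 0 higher), 0 of the release-machinery list genes and 29 genes in all. Rimbp2 had a limma adjusted p of 0.226 there. DESeq2 called 2 of the list genes and 403 genes in all. Leaving out 1 library gave 2 changed genes of the 10 each time (1 higher, 1 lower), 0 of the list genes, and 61 to 119 genes in all, where dropping Fezf2 KO 3 gave 61, wild type 3 gave 74 and wild type 2 gave 77. Among the 140 single-gene values under other settings, 123 kept direction and call, 8 lost the call and 9 changed sign. The sign changes were all in genes that did not pass. Rims1 went to 0.0083 with edgeR and TMM, 0.0091 with RLE and 0.0094 with DESeq2. Leaving out 1 library gave log2 differences of -0.12 to 0.18 for Rims1, -0.0086 to 0.088 for Cplx1 and -0.039 to 0.093 for Rims3. The cause of these shifts was not tested. With 3 brains per genotype the 95% interval of Rims1 runs from 0.783- to 1.25-fold, so changes inside it are not excluded. The interval is not the limit of the test, because a call needed an adjusted p under 0.05 over all genes. Changes somewhat larger than the interval could also have gone uncalled.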

Other observations

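Spread among brains differed between the genes, a measure that does not use the genotype comparison. The coefficient of variation over the 3 wild type libraries was 0.942% for Unc13a, 3.70% for Rims2, 5.29% for Rims1, 13.7% for Unc13c and 21.1% for Cplx3, against a median of 7.26% over all 17557 genes tested. For Unc13a in wild type it was close to the counting error of at most 0.808% in any library. Over the 3 Fezf2 KO libraries the coefficient was 21.7% for Rims1, 10.1% for Rims2, 9.21% for Rims3, 5.21% for Unc13a and 1.93% for Cplx2, against a median of 7.89%. In Rims1, Rims2 and Rims3 the lowest of the 3 Fezf2 KO libraries was Fezf2 KO 1 in each case. This was not particular to the RIM genes. Fezf2 KO 1 was also the lowest of the 3 for Cplx2, Unc13a, Unc13b and Unc13c, but not for Cplx1, Cplx3 or Rimbp2. Cplx3 had between 58 and 517 reads per library, so counting error alone reached 13.1% in its lowest library.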
